A study of Mus musculus with 10 samples.

Results

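Collagen chain genes were taken as all genes whose symbol is Col, a number, a and a number. This gave 30 of the 15498 genes listed for the embryonic heart and 35 of the 15989 genes listed for the adult heart, 38 genes in all, of which 27 stood in both tables. Col9a1, Col9a3 and Col24a1 were listed at the embryonic stage alone. Col6a5, Col7a1, Col8a1, Col11a2, Col14a1, Col18a1, Col20a1 and Col28a1 were listed in the adult alone. The cardiomyocyte markers Myh6, Actn2 and Ryr2 were also listed in the adult alone, so a gene that is not listed is not read as not expressed. All sums below cover listed genes only.

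The RNA came from hearts of C57BL/6 mice with or without LARP7, an RNA-binding protein that stabilises the noncoding RNA 7SK. At stage E15.5 of embryonic development, 3 samples of Larp7+/+ hearts (wild type) and 3 of Larp7-/- hearts (knockout, a deletion carried by all cells) were sequenced. At 4 months of age, heart apex was taken from 2 samples of genotype Larp7f/f, in which both alleles carry recombination sites (CTR), and from 2 of genotype Myh6Cre;Larp7f/f (mCKO). The Myh6 promoter drives Cre in cardiomyocytes, so other heart cells keep the gene, and the labels list no Cre for CTR. Nothing in the labels states that each sample is a different animal, and p-values then measure only a spread between samples that may be technical. Values are given on the authors' per-million scale as whole numbers, and each table was scaled on its own. Larp7 itself was 96, 88 and 103 in wild-type and 45, 54 and 40 in knockout embryonic hearts (log2 change -1.04, SE 0.17, limma adjusted p = 0.00163). It was 26 and 28 in CTR and 26 and 24 in mCKO (log2 change -0.11, SE 0.17, limma adjusted p = 0.934). Signal of the gene thus remained in the embryonic knockout, and the adult labels are not checked by it, so each adult direction rests on the labels. Of 10 cardiomyocyte markers, 6 were listed at E15.5, with summed values of 18013, 20007 and 20889 in wild-type and 17444, 15451 and 14569 in knockout hearts. In the adult 9 were listed, with sums of 58126 and 59151 in CTR and 55568 and 54540 in mCKO. The sums were lower in the knockout samples of both tables, without overlap.

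Collagens are trimers of chains wound around each other over glycine-rich repeats. Fibrillar collagens (types I, III, V and XI) form the tensile fibrils of the heart's interstitium and valves, and are made mainly by fibroblasts and valve cells. Type IV collagen forms the sheet of basement membranes around cardiomyocytes and vessels, type VI forms beaded filaments, type VIII forms hexagonal lattices, and fibril-associated collagens decorate the surface of fibrils. In a whole tissue, fewer cells of a type and less RNA per cell cannot be told apart.

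The genes of type IV chains lie head to head in pairs. In the GENCODE vM21 annotation of mm10, Col4a1 (chr8:11198423-11312826, minus strand) and Col4a2 (chr8:11312805-11449287, plus strand) run in opposite directions with 5′ ends that overlap by 22 bases. Reads from that overlap cannot be told apart, since the sources used here do not say whether counting used strand. The start sites of Col4a3 and Col4a4 lie 72 bases apart on chromosome 1 and those of Col4a5 and Col4a6 lie 1309 bases apart on chromosome X. Col3a1 and Col5a2 face each other on chromosome 1, with 24615 bases between their 3′ ends. Promoter windows of 300 bases (250 before and 50 after the start, RefSeq, GRCm38.p6) were matched by symbol for 31 of the 38 genes, 34 windows in all. Windows of Col1a1, Col4a3, Col5a2, Col9a3, Col12a1, Col14a1 and Col26a1 were not matched. Of 3 common promoter motifs searched on both strands, each counted by itself whether or not it overlapped another, CCAAT stood in 11 of 34 chain windows (32.4%) and 37.4% of all 32851 windows. GGGCGG, the GC box, stood in 22 of 34 (64.7%) against 35.7%, and TATAAA stood in 3 of 34 (8.82%) against 13.6%. These matches describe letters and not bound sites. The windows of 3 chains follow because the results turn on them: the type I chain Col1a2 (chr6:4505368-4505667, plus strand), the type III chain Col3a1 (chr1:45311288-45311587, plus strand) and the type IV chain Col4a1 (chr8:11312777-11313076, minus strand). Capitals mark CCAAT on either strand in the windows of Col1a2 (2 matches) and Col3a1 (0 matches), and in Col4a1 they mark the 78 bases that its window shares with that of Col4a2.
Col1a2: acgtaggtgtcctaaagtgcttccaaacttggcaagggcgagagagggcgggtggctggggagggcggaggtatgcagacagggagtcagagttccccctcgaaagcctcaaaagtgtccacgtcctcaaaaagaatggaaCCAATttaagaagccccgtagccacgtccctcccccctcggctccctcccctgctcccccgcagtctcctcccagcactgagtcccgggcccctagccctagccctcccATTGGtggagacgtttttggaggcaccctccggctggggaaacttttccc
Col3a1: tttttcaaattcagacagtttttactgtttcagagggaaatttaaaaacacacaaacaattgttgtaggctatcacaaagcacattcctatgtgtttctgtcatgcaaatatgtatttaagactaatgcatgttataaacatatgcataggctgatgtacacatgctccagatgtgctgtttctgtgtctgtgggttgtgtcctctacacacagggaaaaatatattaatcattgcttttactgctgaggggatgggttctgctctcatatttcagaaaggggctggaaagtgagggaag
Col4a1: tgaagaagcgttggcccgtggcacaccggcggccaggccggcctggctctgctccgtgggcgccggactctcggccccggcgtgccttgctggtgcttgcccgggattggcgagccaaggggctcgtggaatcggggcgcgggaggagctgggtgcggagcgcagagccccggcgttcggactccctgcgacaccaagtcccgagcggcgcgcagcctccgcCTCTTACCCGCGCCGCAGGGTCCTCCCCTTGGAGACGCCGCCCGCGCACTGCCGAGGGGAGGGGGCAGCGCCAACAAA

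At E15.5, 2 chains passed the test, both higher in the knockout: Col23a1, a transmembrane collagen, and Col9a1, a chain of the fibril-associated type IX collagen best known from cartilage. Fibrillar chains were each higher on average without passing it, and the main type IV chains Col4a1 and Col4a2 had log2 changes of -0.04 and -0.06. The test was limma on log2(value + 1) with Benjamini-Hochberg adjustment over all 13609 genes tested, called at 0.05. With it, 2 of 30 chains were called higher, beside 0.478% of all genes, and 0 of 30 were called lower, beside 0.0955%. At an unadjusted p under 0.05 there were 7 chains, and 1891 (13.9%) of all genes. Wild-type and knockout values did not overlap in 15 chains with the knockout higher, beside 19.3% of all genes, and in 2 with the knockout lower, beside 8.75%. The median log2 change was 0.34 over the 30 chains and 0.11 over all genes, and without wild type 3 or knockout 3 that of the chains was 0.13. Over all genes 65 were called higher and 13 lower. With median-of-ratios scaling these were 26 and 13, and 1 chain, Col23a1, was called. Leaving out 1 sample at a time gave 1 (without knockout 3) to 7 (without wild type 2 or knockout 2) chains called higher, and 1 lower, Col15a1, without wild type 1 or knockout 1. Over all genes these fits called 171 to 420 higher and 40 to 86 lower.

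In these tables the control and knockout values of 1 replicate number sum to a total that is the same for each number, to within 2 in all chains. A chain that is low in wild type 3 is therefore high in knockout 3, and which of the pair departs cannot be told apart. For the same reason, non-overlap of the groups and a difference of the same sign in every number are nearly the same statement.

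The type I chains were the clearest case of a difference held by 1 number. Col1a1, the main chain of bone, skin and heart fibrils, was 1213, 1209 and 759 in wild-type and 1178, 1183 and 1632 in knockout hearts. Its partner Col1a2 was 1046, 1073 and 729 in wild-type and 1090, 1064 and 1408 in knockout hearts. Numbers 1 and 2 were nearly level in both genes, with log2 changes of -0.04 and -0.03 for Col1a1, whereas number 3 gave 1.10. The means gave a log2 change of 0.34 (SE 0.23, limma adjusted p = 0.527) for Col1a1 and 0.33 (SE 0.20, adjusted p = 0.492) for Col1a2. Without number 3 the Col1a1 change was -0.04, the opposite sign.

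Col3a1, the type III chain that co-assembles with type I in compliant tissue, was 1603, 1657 and 1505 in wild-type and 1716, 1663 and 1814 in knockout hearts. The groups did not overlap, although wild type 2 and knockout 2 differed by only 6. Its log2 change was 0.12 (SE 0.19, limma adjusted p = 0.803).

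Type V chains sit inside type I fibrils and limit their width. Col5a2 was 267, 262 and 223 in wild-type and 318, 324 and 363 in knockout hearts, without overlap and higher in each number. Its log2 change was 0.42 (SE 0.17, limma adjusted p = 0.263), which misses the threshold. Col5a1, its partner in the same trimers, was 278, 290 and 242 in wild-type and 300, 288 and 335 in knockout hearts, and overlapped (log2 change 0.19, adjusted p = 0.658). The ratio of Col5a1 to Col5a2 within a sample was 1.04, 1.11 and 1.09 in wild-type and 0.943, 0.889 and 0.923 in knockout hearts. That ratio did not overlap between groups, a log2 difference of -0.23.

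Among the lower fibrillar chains, Col11a1, a nucleator of fibrils, was 18, 17 and 7 in wild-type and 22, 22 and 32 in knockout hearts (log2 change 0.89, SE 0.41, limma adjusted p = 0.444). Col27a1, a cartilage-associated fibrillar chain, was 22, 22 and 10 against 21, 22 and 34. In both genes number 3 held most of the difference, and without it the Col27a1 change was -0.03. Col5a3 and Col24a1 stayed at 5 or below in every sample. Summed over the 9 fibrillar chains, values were 4451, 4535 and 3477 in wild-type and 4650, 4571 and 5626 in knockout hearts.

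The summed value of the basement membrane class was 1704, 1737 and 1655 in wild-type and 1679, 1646 and 1731 in knockout hearts, with overlap. Col4a1, with Col4a2 the common type IV pair of most basement membranes, was 842, 853 and 841 in wild-type and 822, 812 and 825 in knockout hearts. The wild-type samples were all above the knockout ones, by a log2 change of -0.04 (SE 0.18, limma adjusted p = 0.949). Col4a2 was 628, 655 and 614 against 610, 583 and 625, with overlap. The X-linked chains Col4a5 and Col4a6, which form other type IV trimers, differed the other way without passing the test. Col4a5 was 183, 186 and 160 in wild-type and 198, 196 and 221 in knockout hearts (log2 change 0.22, adjusted p = 0.585). Col4a6 was 39, 38 and 33 against 42, 43 and 49 (log2 change 0.28, adjusted p = 0.49). Neither pair of groups overlapped. Col4a3 and Col4a4 stayed at 10 or below.

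Type VI collagen is a trimer of the Col6a1, Col6a2 and Col6a3 chains in most tissues, and the 3 chains differed unequally between the groups. Col6a1 was 198, 220 and 172 in wild-type and 259, 237 and 285 in knockout hearts (log2 change 0.41, SE 0.17, limma adjusted p = 0.272). Col6a3 was 76, 92 and 80 in wild-type and 120, 104 and 116 in knockout hearts (log2 change 0.45, SE 0.16, adjusted p = 0.193). Both were higher in each number, without overlap. Col6a2 was 202, 228 and 197 in wild-type and 222, 195 and 226 in knockout hearts and overlapped (log2 change 0.04, or -0.03 with median-of-ratios scaling). The ratio of Col6a1 to Col6a2 was 0.980, 0.965 and 0.873 in wild-type and 1.17, 1.22 and 1.26 in knockout hearts, a log2 difference of 0.37 without overlap. Col6a6, a chain that can stand in for Col6a3, was 39, 35 and 33 against 38, 42 and 44. Col8a2, a type VIII chain of endothelial and valve matrix, was 17, 17 and 4 against 19, 19 and 33, with nearly all of the difference in number 3.

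Type IX collagen binds the surface of type II and XI fibrils. Col9a1 (chr1:24177610-24252684) was 8, 5 and 5 in wild-type and 13, 15 and 16 in knockout hearts. Every knockout sample was above every wild-type one. The mean was 6 ± 1.73 in wild-type and 14.7 ± 1.53 in knockout hearts (SD, n = 3 each), a log2 change of 1.18 (SE 0.26, limma adjusted p = 0.0258). The call was lost without knockout 3 (adjusted p = 0.0692), and over all settings and left-out samples that p ran from 0.000893 to 0.586. Its trimer partners did not pass. Col9a2 was 17, 16 and 9 against 18, 18 and 26, and Col9a3 was 6, 5 and 5 against 8, 9 and 9, both higher in each number (adjusted p = 0.359 and 0.306). Of 10 chondrocyte markers 5 were listed, with summed values of 39, 34 and 49 in wild-type and 71, 76 and 69 in knockout hearts. Sox9, also a valve gene, made up most of that sum at 27, 22 and 40 against 54, 59 and 41. The cartilage matrix gene Matn4 was 5, 5 and 4 against 8, 8 and 8, and Lect1, a cartilage membrane protein, was 1, 1 and 0 against 2, 3 and 2. Acan, the main cartilage proteoglycan, was 6, 6 and 5 against 6, 6 and 18, and Matn3, also a matrix gene, was at 0 or 1 in all samples. All 4 chondrocyte markers tested had a positive change, beside 60.7% of all genes, and 3 did not overlap with the knockout higher, beside 19.3%. By limma 3 had an unadjusted p under 0.05, beside 13.9% of all genes, and 0 were called. The part of these markers in the Col9a1 result was not tested. Col12a1, another fibril-associated chain, was 41, 48 and 40 against 55, 48 and 57, higher in 2 of 3 numbers and equal in number 2 (log2 change 0.31, limma adjusted p = 0.423). Col16a1 was between 51 and 53 in every sample.

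Col23a1 (chr11:51289920-51583918), a membrane-anchored collagen with a shed ectodomain, was 57, 61 and 75 in wild-type and 126, 122 and 108 in knockout hearts. The groups were far apart, and number 3 showed the smallest difference, unlike in the type I chains. The mean was 64.3 ± 9.45 in wild-type and 118.7 ± 9.45 in knockout hearts (SD, n = 3 each), a log2 change of 0.88 (SE 0.16, limma adjusted p = 0.00891). Without wild type 1 or knockout 1 the call was lost (adjusted p = 0.124 and 0.123). Over all settings and left-out samples the adjusted p ran from 7.59e-05 to 0.586. In the authors' deposited table Col23a1 has a p-value of 0.000585 and an adjusted p of 0.0526. The other transmembrane chains were low, with Col13a1 between 8 and 14 and Col25a1 between 5 and 7, and both were higher in each number.

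Col15a1, a basement membrane proteoglycan of the multiplexin group, was the chain with the largest difference downward. It was 60, 64 and 88 in wild-type and 47, 43 and 19 in knockout hearts, lower in each number and without overlap. Number 3 differed most, and the log2 change of -1.02 had an SE of 0.51 (limma adjusted p = 0.531). In the authors' deposited table its unadjusted p-value is 0.00376. Col26a1, which stands outside the classes, was 26, 30 and 16 against 36, 32 and 46 (log2 change 0.67, adjusted p = 0.272).

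**Figure D1:**
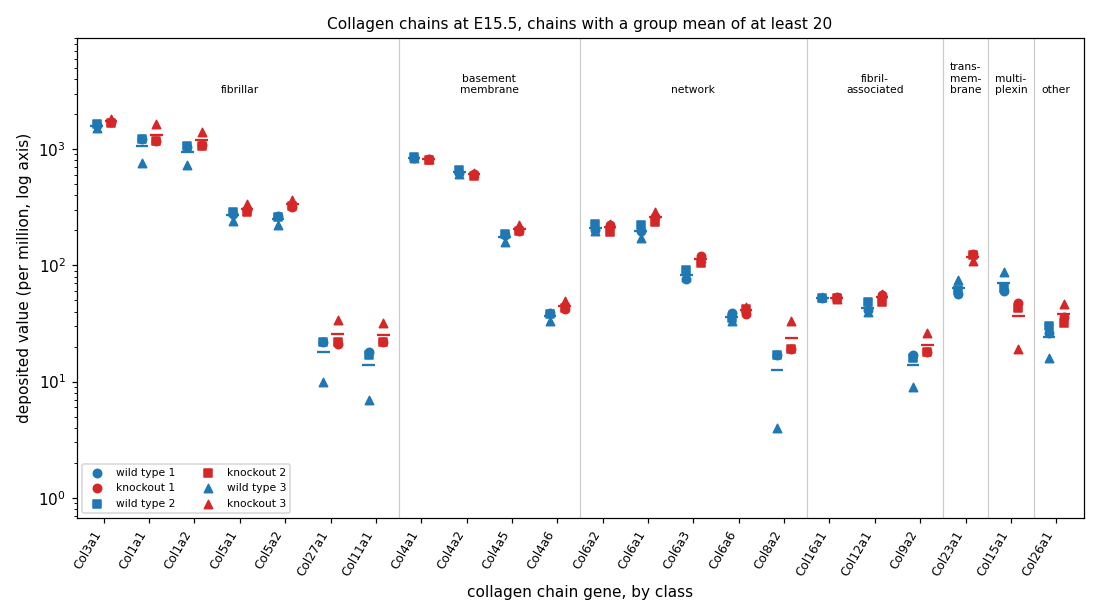
Deposited per-million values (log axis) of the 22 chain genes with a group mean of at least 20 at E15.5, by class; wild-type samples are blue, knockout samples red, shapes are replicate numbers and lines are group means. Number 3 (triangles) is low in wild type and high in knockout for Col1a1, Col1a2, Col11a1, Col27a1 and Col8a2, and the reverse for Col15a1, while all 3 knockout samples of Col23a1 lie above the wild-type ones.

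Over all 30 chains, summed values were 6969, 7161 and 5923 in wild-type and 7362, 7172 and 8414 in knockout hearts. Number 2 was almost level. The median log2 change of the chains was 0.11 in number 1, 0.10 in number 2 and 0.54 in number 3, where that of all genes was 0, 0.10 and 0. In number 3, 27 of the 30 chains were higher in the knockout, beside 42.2% of all genes. Epicardial markers, of which 4 of 7 were listed, also differed most in number 3, with summed values of 238, 191 and 146 in wild-type and 207, 255 and 299 in knockout hearts. Fibroblast markers, of which 4 of 10 were listed, did not follow the chains (467, 407 and 462 against 456, 519 and 463). Of these 4, 2 had a positive and 2 a negative change. Pdgfra, a receptor of mesenchymal cells, passed the test (71, 72 and 69 against 115, 115 and 118, limma adjusted p = 0.0296). Markers of stratified epithelium, of which 8 of 10 were listed, were high in the number 1 samples (106 and 254 against 67 to 84 in the others), and among them Lad1 passed the test (adjusted p = 0.0338). Of the 6 cardiomyocyte markers, 4 had a negative change and did not overlap with the knockout lower, beside 8.75% of all genes (median log2 change -0.36). By limma 0 of them were called and 1 had an unadjusted p under 0.05. Markers of activated fibroblasts, of which 4 of 5 were listed, summed to 589, 654 and 672 in wild-type and 679, 611 and 593 in knockout hearts. Most of that was Postn, a matrix protein, at 533, 590 and 621 against 594, 536 and 504 (log2 change -0.09, limma adjusted p = 0.854). Of the smooth muscle and pericyte markers 4 of 9 were listed, with sums of 370, 358 and 319 in wild-type and 339, 352 and 389 in knockout hearts. Of these 4 markers, 2 had a positive and 2 a negative change. The pericyte gene Rgs5 was called lower, at 83, 76 and 80 against 39, 47 and 42 (log2 change -0.89, limma adjusted p = 0.00704). Abcc9, of the same list, was higher without overlap and not called, at 175, 176 and 148 against 193, 193 and 220 (adjusted p = 0.467). The part of these cell types in the chain differences was not tested.

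The genes that make and use the chains were read from 4 lists. Of all genes tested at E15.5, 60.7% had a positive change, 19.3% did not overlap with the knockout higher, 13.9% had an unadjusted p under 0.05 and 0.478% were called higher. Of 20 chain modification and folding genes, which hydroxylate, glycosylate and fold the procollagen chains, 18 were listed at E15.5, and 17 had a positive change (median log2 change 0.31). Serpinh1, the collagen chaperone HSP47, was the highest of these at 2219, 1893 and 2167 in wild-type and 2284, 2612 and 2337 in knockout hearts (log2 change 0.20, limma adjusted p = 0.682). By limma 0 of the 18 were called and 4 had an unadjusted p under 0.05, while 10 did not overlap between groups with the knockout higher. Of the 7 genes tested for propeptide removal and cross-linking (median 0.22), 0 were called and 1 had an unadjusted limma p under 0.05. The highest of them was Loxl2, a cross-linking oxidase, at 298, 233 and 258 against 272, 337 and 312. Of 6 collagen receptors (median 0.56), 0 were called and 2 had such a p, and the integrin subunit Itgb1 was level at 788, 763 and 756 against 727, 751 and 759. Of 9 basement membrane partners (median 0.23), 0 were called and 2 had such a p, and the laminin chain Lamc1 was 561, 532 and 493 against 542, 571 and 611.

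In the adult apex, 5 chains passed the test, all higher in mCKO: the basement membrane chains Col4a1, Col4a2, Col4a3 and Col4a5, and Col8a1, a type VIII chain of vascular and remodelling matrix. The fibrillar chains showed larger differences, up to a log2 change of 2.30 for Col3a1, but by limma 0 of 8 passed and 1, Col11a2, had an unadjusted p under 0.05. The log2 changes of Col1a1, Col1a2 and Col3a1 had an SE of 0.86 to 1.46, whereas those of Col4a1 and Col4a2, also uneven between the 2 replicate numbers, had an SE of 0.15. Of the 33 chains tested, 5 were called higher, beside 2.3% of all 14835 genes, and 0 lower, beside 0.944%. At an unadjusted p under 0.05 there were 10 chains, and 1817 (12.2%) of all genes. In 17 chains the groups did not overlap with mCKO higher, beside 29.3% of all genes, and in 1 with mCKO lower, beside 12.8%. The median log2 change was 0.67 over the chains and 0.08 over all genes. Over all genes 341 were called higher and 140 lower, and with median-of-ratios scaling 282 and 206, with the same 5 chains called. The chain median was 0.34 without CTR 1, 1.16 without CTR 2, 0.50 without mCKO 1 and 0.94 without mCKO 2.

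These adult calls rest on a spread pooled over genes, since each gene has 1 residual degree of freedom. With the pooling limited to 4 prior degrees of freedom, limma called 0 chains and 0 of all genes, and 4 chains had an unadjusted p under 0.05. With pooling that makes no exception for variable genes, 16 chains were called, among them Col1a1, Col1a2 and Col3a1. Over all genes that fit called 404 higher and 167 lower. Leaving out 1 adult sample left 1 sample in a group. Those fits also had no block for replicate number, so no call is read from them. The fit of all 4 adult samples without that block called 1 chain, Col4a3.

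The type I and type III chains were lowest in CTR 1 and highest in mCKO 1. Col1a1 was 25 and 107 in CTR and 245 and 163 in mCKO (log2 change 1.92, SE 1.32, limma adjusted p = 0.902). Col1a2 was 73 and 172 in CTR and 341 and 241 in mCKO (log2 change 1.35, SE 0.86, adjusted p = 0.879). Col3a1 was 39 and 208 in CTR and 543 and 373 in mCKO (log2 change 2.30, SE 1.46, adjusted p = 0.881). In each gene both mCKO samples were above both CTR samples. By replicate number the log2 change of Col3a1 was 3.77 and 0.84, that of Col1a1 3.24 and 0.60, and that of Col1a2 2.21 and 0.48. Without CTR 1, Col3a1 had a log2 change of 1.11. With pooling that makes no exception for variable genes its limma adjusted p was 7.19e-70. With the pooling limited to 4 prior degrees of freedom it was 0.933.

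The type V chains followed with smaller values. Col5a2 was 16 and 38 in CTR and 75 and 54 in mCKO (log2 change 1.33, SE 0.70, limma adjusted p = 0.777), and was higher in both numbers. Col5a1 was 22 and 55 in CTR and 88 and 56 in mCKO, so that number 2 was level (log2 changes of 1.95 and 0.03). As in the embryo, the ratio of Col5a1 to Col5a2 was lower in the knockout samples, at 1.38 and 1.45 in CTR and 1.17 and 1.04 in mCKO, a log2 difference of -0.34. Col5a3, the other type V chain, was level: it was 16 and 16 in CTR and 16 and 15 in mCKO. Col27a1 was 8 and 9 against 13 and 11, and Col11a2 was 2 and 5 against 7 and 5. Col11a1 was at 0 in 3 samples and at 1 in mCKO 1.

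Of the 6 type IV chains 4 were called higher, and Col4a4 and Col4a6 were not. Col4a1 was 223 and 349 in CTR and 493 and 367 in mCKO, a mean of 286 ± 89.1 against 430 ± 89.1 (SD, n = 2 each). The log2 change was 0.61 (SE 0.15, limma adjusted p = 0.00302), with 1.14 in number 1 and 0.07 in number 2. Without the block for replicate number the limma adjusted p was 0.326. With the pooling limited to 4 prior degrees of freedom it was 0.87.

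Col4a2 was 156 and 243 in CTR and 326 and 240 in mCKO, so the groups overlapped and number 2 differed by -3. Its log2 change was 0.52 (SE 0.15, limma adjusted p = 0.0194). The call was lost without the block for replicate number (limma adjusted p = 0.384). It was also lost with the pooling limited to 4 prior degrees of freedom (adjusted p = 0.87). The ratio of Col4a1 to Col4a2 was 1.43 and 1.44 in CTR and 1.51 and 1.53 in mCKO, so this pair, whose start sites overlap, differed between groups by a log2 ratio of 0.09.

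Col4a5, whose trimers with Col4a3 and Col4a4 are best known from kidney, was 18 and 29 in CTR and 46 and 35 in mCKO (log2 change 0.78, SE 0.17, limma adjusted p = 0.000275). Col4a3 was 2 and 3 against 8 and 7 (log2 change 1.29, SE 0.34, adjusted p = 0.00753). Both were higher in each number without overlap. Without the block for replicate number the limma adjusted p was 0.211 for Col4a5 and 0.0439 for Col4a3. With the pooling limited to 4 prior degrees of freedom it was 0.857 for both. Col4a4 was 6 and 13 against 18 and 12 and missed the threshold (adjusted p = 0.0843). Col4a6 stayed at 1 or 2.

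Col8a1 (chr16:57624258-57754737) had the smallest adjusted p of the chains. It was 20 and 33 in CTR and 69 and 55 in mCKO, with both mCKO samples well above both CTR samples. The mean was 26.5 ± 9.19 against 62 ± 9.90 (SD, n = 2 each), a log2 change of 1.23 (SE 0.16, limma adjusted p = 1.17e-11), with 1.74 in number 1 and 0.72 in number 2. The call was kept with median-of-ratios scaling and with pooling that makes no exception for variable genes. Without the block for replicate number it was lost (limma adjusted p = 0.108). It was also lost without the variance added for rounding (adjusted p = 0.62) and with the limited pooling (adjusted p = 0.857). Col8a2, the partner of Col8a1, was at 1 or 2 in every sample.

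All 3 main type VI chains had higher values in both mCKO samples than in both CTR samples, and none passed the test. Col6a1 was 56 and 108 in CTR and 185 and 132 in mCKO (log2 change 1.00, SE 0.35, limma adjusted p = 0.363). Col6a2 was 58 and 114 against 178 and 122, and Col6a3 was 26 and 55 against 86 and 57, with log2 changes of 0.85 and 0.87 (adjusted p = 0.782 and 0.904). For Col6a2 and Col6a3 number 2 was close to level. The ratio of Col6a1 to Col6a2 was 0.966 and 0.947 in CTR and 1.04 and 1.08 in mCKO, a log2 difference of 0.15 in the direction seen in the embryo. Col6a6 was between 4 and 6, and Col6a5, Col7a1 and Col28a1 stayed at 2 or below.

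The fibril-associated chains Col14a1 and Col16a1 had the same uneven pattern as the fibrillar ones. Col14a1, which binds type I fibrils through their proteoglycans, was 20 and 52 in CTR and 94 and 62 in mCKO (log2 change 1.21, SE 0.96, limma adjusted p = 0.904). Col16a1 was 2 and 12 against 26 and 16 (log2 change 1.78, SE 1.38, adjusted p = 0.904). Col9a2, Col12a1 and Col20a1 were at 4 or below. The multiplexins differed less: Col15a1 was 55 and 112 against 154 and 98, with overlap, and Col18a1, the source of endostatin, was 8 and 13 against 19 and 14 (adjusted p = 0.0851). Col23a1, called at E15.5, was at 3 or 4 in every adult sample, and Col13a1, Col25a1 and Col26a1 were at 2 or below.

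**Figure D2:**
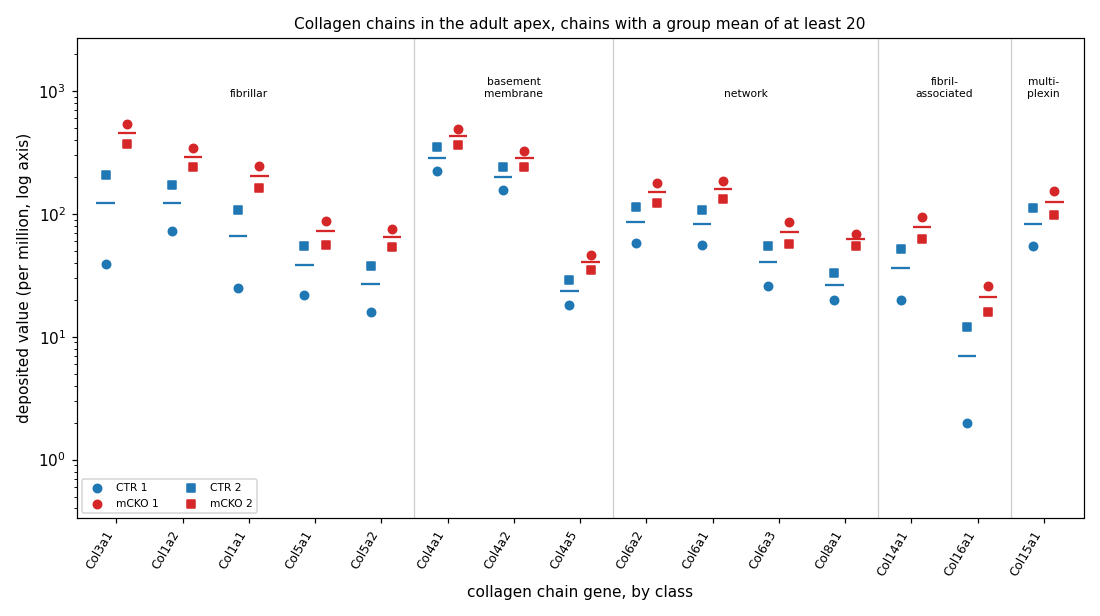
Deposited per-million values (log axis) of the 15 chain genes with a group mean of at least 20 in the adult apex, by class; CTR samples are blue, mCKO samples red, shapes are replicate numbers and lines are group means of 2 samples. CTR 1 is the lowest and mCKO 1 the highest sample for each gene, from 39 to 543 for Col3a1, and number 2 lies between them.

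Summed over all chains, values were 865 and 1769 in CTR and 3056 and 2154 in mCKO. The median log2 change of the 33 tested chains was 1.42 in number 1 and 0.05 in number 2, beside 0.09 and 0 over all genes. In number 1, 27 chains were higher in mCKO and 1 lower, where 55.4% of all genes were higher. In number 2, 18 chains were higher, 8 lower and 7 equal, where 42.8% of all genes were higher. Because the totals are fixed, a low CTR 1 and a high mCKO 1 cannot be told apart.

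**Figure D3:**
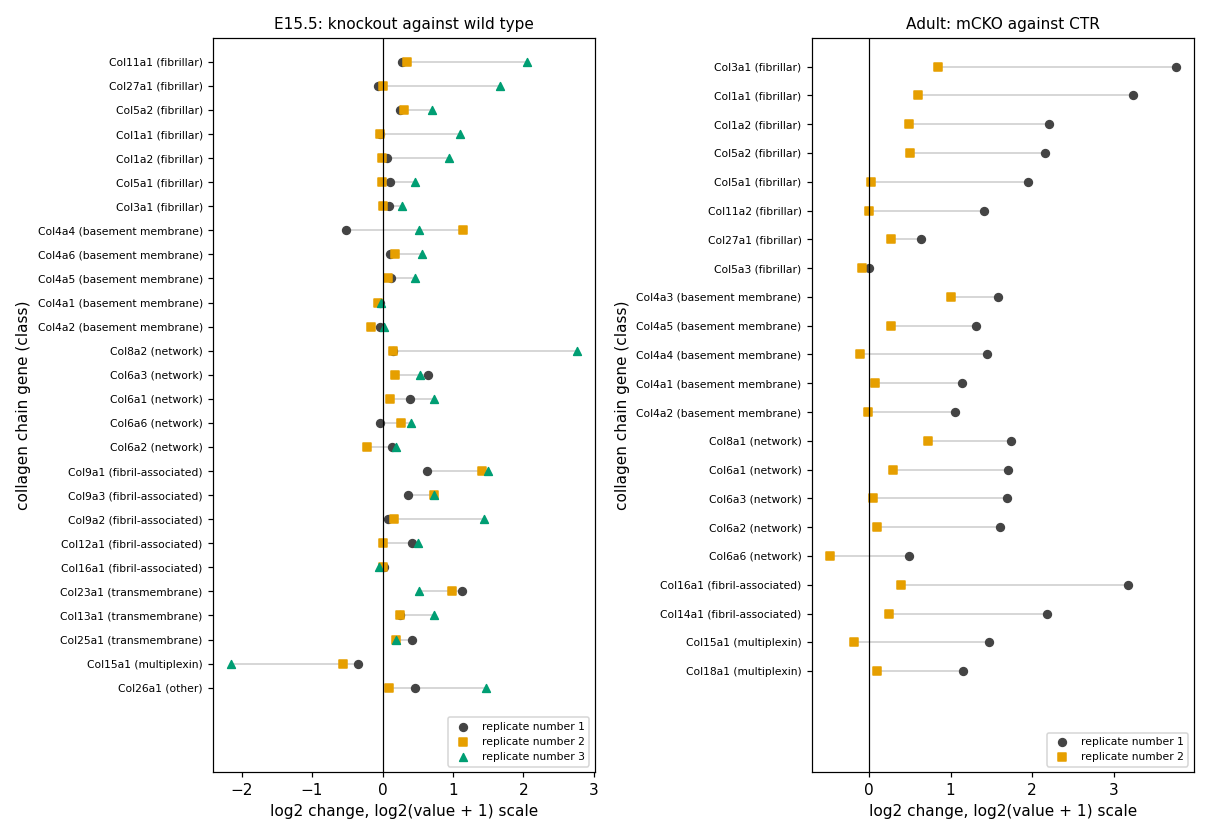
Log2 change (knockout minus control, on the log2(value + 1) scale) of each chain gene with a group mean of at least 4, by replicate number; left E15.5, right adult, with genes grouped by class. Number 3 stands to the right for many E15.5 chains, and in the adult number 1 stands to the right of number 2 for every chain shown.

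The mix of classes also differed in the adult. Fibrillar chains made up 23.2% and 34.5% of the summed chain value in CTR and 43.5% and 42.6% in mCKO. Basement membrane chains made up 46.9% and 36.1% in CTR and 29.2% and 30.8% in mCKO, although 4 of them were called higher. These shares depend on gene length if the values are not corrected for it, so only their difference between samples is read. In the embryo the fibrillar share was 63.9%, 63.3% and 58.7% in wild-type and 63.2%, 63.7% and 66.9% in knockout hearts, with overlap. The basement membrane share was 24.5%, 24.3% and 27.9% in wild-type and 22.8%, 23.0% and 20.6% in knockout hearts, without overlap. The ratio of Col3a1 to Col4a1, picked after the values were seen, was also higher in the knockout samples. It was 1.90, 1.94 and 1.79 in wild-type and 2.09, 2.05 and 2.20 in knockout embryos, and 0.175 and 0.596 in CTR and 1.10 and 1.02 in mCKO. Of 8 ratios examined, none was tested, and that of Col8a1 to Col8a2 could be taken in the adult alone. In the adult, with 2 samples in each group, all 8 were without overlap, so non-overlap there sets no ratio apart. The ratio of Col1a1 to Col3a1 had a log2 difference of 0.22 at E15.5, with overlap, and -0.38 in the adult. That of Col6a3 to Col6a1 was 0.05 at E15.5, with overlap, and -0.13 in the adult. For Col4a1 to Col4a2 it was 0.02 at E15.5, with overlap, and 0.09 in the adult.

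**Figure D4:**
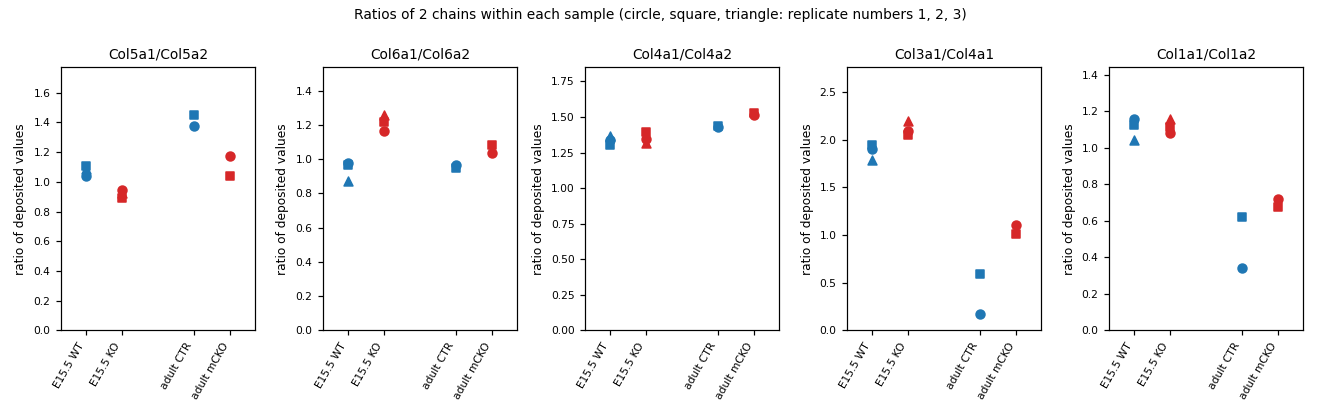
Ratios of the deposited values of 2 chains within each sample, for 5 pairs; control samples are blue, knockout samples red, and shapes are replicate numbers, with the embryonic and adult tables scaled separately. Col5a1/Col5a2 is lower and Col6a1/Col6a2 and Col3a1/Col4a1 are higher in the knockout samples of both tables without overlap. Col4a1/Col4a2 and Col1a1/Col1a2 overlap at E15.5. In the adult all 5 pairs are without overlap.

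Genes that process and bind collagen included called members in the adult. Of the 12 genes for propeptide removal and cross-linking, 11 had a positive change (median log2 change 0.58), beside 62.3% of all genes, and 4 were called higher, beside 2.3%. Lox, the lysyl oxidase that cross-links collagen and elastin, was 2 and 2 in CTR and 10 and 10 in mCKO (log2 change 1.87, limma adjusted p = 3.32e-06). Loxl2, of the same family, was 11 and 13 against 31 and 28 (log2 change 1.23, adjusted p = 1.84e-08). Loxl1, also of that family, was 38 and 42 against 65 and 62 (log2 change 0.66, adjusted p = 0.00139). Pcolce, which enhances removal of the C-propeptide, was 61 and 72 against 120 and 110 (log2 change 0.78, adjusted p = 2.08e-05). In these 4 genes the values of replicates lay closer together than in Col1a1, Col1a2 and Col3a1.

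Among 19 listed chain modification and folding genes, 14 had a positive change (median 0.16), and P4hb, a subunit of prolyl 4-hydroxylase, was called (185 and 204 against 288 and 269, log2 change 0.52, limma adjusted p = 0.0151). Among 8 receptors (median 0.34), the discoidin receptor Ddr1 (21 and 30 against 42 and 34, adjusted p = 0.021) and the collagen uptake receptor Mrc2 (28 and 41 against 57 and 44, adjusted p = 0.0181) were called higher. Among the basement membrane partners (14 listed, median 0.25), the linker Nid2 was called higher at 14 and 21 against 30 and 23 (adjusted p = 0.0399), as was the proteoglycan Agrn at 64 and 92 against 122 and 94 (adjusted p = 0.042). The laminin chain Lama5 was called lower, at 175 and 127 against 76 and 123 (log2 change -0.62, adjusted p = 0.00502). Of all genes, 2.3% were called higher and 0.944% lower. Without the block for replicate number the limma adjusted p was 0.0328 for P4hb, 0.184 for Ddr1 and 0.264 for Mrc2. It was 0.22 for Nid2, 0.314 for Agrn and 0.346 for Lama5.

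Marker genes of fibroblasts, the main collagen-making cells, had higher summed values in mCKO. All 10 fibroblast markers were listed, with summed values of 1524 and 1450 in CTR and 1914 and 1989 in mCKO, and 9 had a positive change (median 0.39). Of these Mfap5 (log2 change 1.26), Meox1 (0.87) and Pi16 (0.70) were called higher (limma adjusted p = 1.26e-13, 0.00015 and 0.000246). The 5 markers of activated fibroblasts summed to 31 and 86 in CTR and 271 and 213 in mCKO. Postn, periostin, made up most of this sum at 20 and 69 against 237 and 187, with an adjusted p of 0.789, and Thbs4 was called (4 and 8 against 20 and 15, adjusted p = 4.33e-07). Epicardial markers (7 of 7 listed) summed to 64 and 24 in CTR and 77 and 116 in mCKO, lowest in CTR 2 rather than CTR 1. Of the 7, 2 were called higher, beside 2.3% of all genes. Aldh1a2 was 15 and 7 against 22 and 29 (limma adjusted p = 5.13e-07). Krt19 was 4 and 0 against 4 and 8 (adjusted p = 0.0132), with overlap and equal in number 1. Without the block for replicate number the limma adjusted p was 0.0116 for Mfap5, 0.0403 for Meox1 and 0.107 for Pi16. It was 0.0927 for Thbs4, 0.192 for Aldh1a2 and 0.387 for Krt19. Macrophage markers (8 listed) summed to 568 and 566 against 665 and 668, while endothelial markers (8 listed) summed to 824 and 782 against 720 and 762. Smooth muscle and pericyte markers (9 listed) summed to 1210 and 1206 in CTR and 1118 and 1124 in mCKO. By limma 0 of the macrophage, endothelial or smooth muscle and pericyte markers were called, with an unadjusted p under 0.05 in 3, 0 and 3 of them. Of the 9 cardiomyocyte markers, 6 had a negative change (median -0.08) and 5 did not overlap with mCKO lower, beside 12.8% of all genes. By limma 0 of these were called and 1 had an unadjusted p under 0.05. The part of these cell types in the chain differences was not tested.

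Of the 27 chains listed in both tables, 5 were higher in every replicate number of both: Col3a1, Col4a5, Col5a2, Col6a1 and Col6a3. That is 18.5%, beside 833 (7.93%) of the 10504 genes listed in both tables. The tables were scaled separately and no test was made between them. In the authors' deposited table for E15.5, 4 of 30 chains have an unadjusted p-value under 0.05 (Col5a2, Col9a1 and Col23a1 higher, Col15a1 lower). An adjusted p from the authors is given for 12 of these chains, and 0 of them are under 0.05. In the authors' deposited table for the adult, 7 of 35 chains have an unadjusted p-value under 0.05, all higher in mCKO (Col1a2, Col4a1, Col5a2, Col6a1, Col6a2, Col8a1 and Col14a1). The share of all genes under 0.05 by the authors' p-values was not computed, so these counts have no background beside them.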

How the data were processed

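Mouse heart RNA was sequenced. Per the submitters' processing notes, the tools were HISAT2 and HTSeq and the build was mm10, with no versions. The authors deposited a score for each gene and sample, a per-million value rounded to a whole number. The sources used here do not give whether it is TPM or CPM. Sums over a sample run from 998498 to 1001508, and the depth cannot be recovered. The deposited tables also hold the authors' log2 fold changes and p-values.

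For same-numbered samples, control plus knockout is constant to within 2 in 8328 of the 8366 E15.5 genes whose mean reaches 10 and in 8642 of 8658 such adult genes (other pairings at most 28.6%). Their deviations from the group means correlate at -0.82 to -0.80 (E15.5) and at -0.81 (adult), by this construction and not by a pairing in the labels.

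Each table was fitted alone on log2(value + 1), using limma 3.58.1 under R 4.3.3. The replicate number was a block, a rounding variance of 0.0833 was added on the value scale, and eBayes used its trend and robust options. Genes reaching 1 in at least 3 (E15.5) or 2 (adult) samples were tested, with Benjamini-Hochberg adjustment at 0.05. A log2 change on this scale understates that of low genes. The fit was tested on simulated data and made more false calls than nominal. Chains with a group mean of at least 20 are given by sample. From other lists the called members, or else the highest, are named, except for an item that is not reported here. Low chains, uncalled chondrocyte markers and Postn were named after their values were seen. The members and lists were chosen with earlier results of these data known. Alternatives were the block, rounding variance, pooling, pseudocount, filter, scaling and leaving out each sample.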

Additional observations from a re-analysis of the deposited data

Results flagged for a closer look

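Between the embryonic and the adult model, 2 chains differed in opposite directions in every replicate number. The log2 change of Col4a1 was -0.044 in the embryo and 0.61 in the adult. That of Col25a1 was 0.27 in the embryo and -1 in the adult, where it was listed at 1 in both CTR samples and at 0 in both mCKO samples. The difference between the models was not tested, since the tables were scaled separately. Neither embryonic change passed the test of its own table, and the adult change of Col25a1 did not either (limma adjusted p = 0.739).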

How the results depend on the processing

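The number of E15.5 chains called higher (2 as reported) was 0 without the rounding variance, with the prior limited to 4 degrees of freedom, without the robust option and with a mean of at least 10. It was 1 with median-of-ratios scaling, and 4 with no filter, which also called 1 lower. Over all genes, the calls were 65 higher and 13 lower as reported. They were 0 and 0 without the rounding variance, with the limited prior and with the mean of at least 10. They were 10 and 1 without the robust option, 26 and 13 with median-of-ratios scaling, 476 and 121 with no filter, 37 and 7 with a pseudocount of 0.5, and 195 and 36 with 4. Without the replicate block, 3 E15.5 chains were called, with 424 genes higher and 173 lower. In the adult that fit called 1 chain (Col4a3) rather than 5, with 272 genes higher and 164 lower. It treats mirrored deviations as independent. Adult chains called were 1 higher and 1 lower without the rounding variance (833 and 297 of all genes) and 0 with the limited prior (0 of all genes). They were 16 without the robust option (404 and 167 of all genes). With the limited prior, 5 chains at E15.5 and 4 in the adult had an unadjusted p under 0.05. Leaving out 1 sample gave 1 to 7 chains higher and 0 to 1 lower at E15.5, and 3 to 20 higher in the adult. Some log2 changes of E15.5 chains changed sign: Col6a2 to -0.028 with median-of-ratios scaling, and, over left-out samples, Col1a1 ran from -0.037 to 0.54, Col27a1 from -0.032 to 0.83, Col6a2 from -0.044 to 0.17 and Col16a1 from -0.027 to 0.013. The cause was not tested. Median-of-ratios scaling moved the median of all genes from 0.11 to 0.04 at E15.5 and from 0.08 to 0.02 in the adult. Leaving out chains that break the fixed total gave no value, since all chains meet it. Depth is unknown, so no counting error can be given.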
